A study of Mus musculus with 10 samples.

Results

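The replication-dependent histone genes encode the bulk of the linker histone H1 and of the core histones H2A, H2B, H3 and H4 that package newly copied DNA. They were taken as the gene symbols that begin with Hist1h, Hist2h, Hist3h or Hist4h and average at least 10 normalized counts over the 4 RNA libraries. Of 16338 genes in the RNA table, 60 carried such a symbol and 59 reached the minimum. They were 6 H1, 14 H2A, 17 H2B, 10 H3 and 12 H4 genes. Hist1h1t, the member nearest the minimum, averaged 13.1 normalized counts, and Hist1h2aa, the one symbol left out, averaged 4.85. All libraries came from the cortical midline of mouse embryos of strain C57/Bl6 at embryonic day 14.5. RNA-seq compared 2 control libraries (Rcor2f/f) with 2 conditional knockout libraries (Rcor2f/f/EMX1-iCRE, here cKO), so both groups carried the floxed Rcor2 allele and the cKO alone carried the Cre. Emx1 drives Cre in dorsal telencephalic progenitors and the cells they make, so interneurons, vessels, blood and microglia of the tissue keep Rcor2. ChIP-seq on wild type midline used 2 libraries each of an Rcor2 antibody, rabbit IgG and input. The labels do not say whether libraries came from separate embryos or from pools, so the p-values measure the spread between these libraries, which may be technical.

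Rcor2 is a corepressor of the CoREST family, which joins histone deacetylases and the demethylase Lsd1 on chromatin. Replication-dependent histone genes are switched on as cells enter S phase and off as they leave it, so in a developing cortex their mRNA marks dividing progenitors more than neurons. Most of their mRNAs end in a stem-loop in place of a poly(A) tail. The stem-loop is bound by Slbp, and the end is cut by a machinery that includes the U7 proteins Lsm10 and Lsm11, while Npat drives transcription of the clusters. The genes lie mostly in tight clusters, and the copies of a core histone class are nearly identical. Reads can therefore be split between copies in ways the files do not show, and the value of any single copy is uncertain.

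The promoters of the 5 classes differ in short elements, shown here for the members described below. RefSeq, on build GRCm38.p6, matched all 59 members by synonym and held a promoter for 51. The 120 bases before the start are printed 5′ to 3′ on the gene's strand, with capitals marking the elements searched. The TATA element was searched as TATAAA. The NF-Y element was searched on either strand as CCAAT, whose reverse complement therefore also appears in capitals. The octamer was searched on either strand as ATTTGCAT. The H1 box was searched on either strand as AAACACA. The letters searched for H4 promoters, on either strand, were GGTCCG.
Hist1h1b (chr13:21780626-21780745, minus strand): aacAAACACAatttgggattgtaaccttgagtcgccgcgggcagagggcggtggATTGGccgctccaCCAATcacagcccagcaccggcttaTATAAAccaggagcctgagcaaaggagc
Hist1h1e (chr13:23622559-23622678, minus strand): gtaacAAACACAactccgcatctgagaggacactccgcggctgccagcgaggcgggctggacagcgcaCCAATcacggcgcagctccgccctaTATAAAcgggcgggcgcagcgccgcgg
Hist1h2bb (chr13:23746614-23746733, plus strand): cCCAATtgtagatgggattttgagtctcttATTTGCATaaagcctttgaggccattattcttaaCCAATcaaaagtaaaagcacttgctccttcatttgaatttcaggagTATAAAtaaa
Hist2h2bb (chr3:96269580-96269699, plus strand): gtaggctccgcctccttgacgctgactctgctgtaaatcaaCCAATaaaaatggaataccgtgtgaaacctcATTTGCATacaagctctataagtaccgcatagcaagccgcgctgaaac
Hist1h3b (chr13:23752225-23752344, plus strand): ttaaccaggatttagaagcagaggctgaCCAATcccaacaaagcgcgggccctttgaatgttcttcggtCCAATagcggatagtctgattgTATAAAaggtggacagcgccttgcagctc
Hist1h4d (chr13:23581448-23581567, plus strand): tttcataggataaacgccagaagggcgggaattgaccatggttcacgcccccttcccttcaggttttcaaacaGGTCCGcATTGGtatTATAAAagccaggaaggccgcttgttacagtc
Hist1h4j (chr13:21734914-21735033, plus strand): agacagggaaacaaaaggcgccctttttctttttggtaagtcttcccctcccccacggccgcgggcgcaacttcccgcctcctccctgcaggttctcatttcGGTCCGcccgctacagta
Hist1h4k (chr13:21750554-21750673, minus strand): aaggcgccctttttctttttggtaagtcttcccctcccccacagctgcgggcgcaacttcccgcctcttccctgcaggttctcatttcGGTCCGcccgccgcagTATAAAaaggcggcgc
Hist1h4h (chr13:23530924-23531043, plus strand): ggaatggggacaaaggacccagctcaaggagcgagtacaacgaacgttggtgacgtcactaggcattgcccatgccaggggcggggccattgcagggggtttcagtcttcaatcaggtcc

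Over the 250 bases before the start, the CCAAT letters were present in 43 of 51 member promoters (84.3%) against 33.8% of all 32851 promoters in the RefSeq table. Every H1, H2A, H2B and H3 promoter held them, as did 3 of 11 H4 promoters. TATAAA, searched on the gene's strand alone, was in 22 members (43.1%) against 7.59% of all promoters. The octamer, a known Oct-1 element of H2B promoters, was in 6 of 13 H2A and 6 of 13 H2B promoters and in 1.6% of all promoters. Some H2A and H2B genes start close together on opposite strands, so their windows overlap. The same octamer can then be counted for both genes. The H1 box was in 5 of 6 H1 promoters and in 6.25% of all. GGTCCG, a string chosen after the sequences had been seen, was in 8 of 11 H4 promoters and in 6.72% of all. A CCAAT box can share bases with GGTCCG read on the other strand. Hist1h4h, an abundant H4 gene, matched none of the 5 searches in the printed stretch, which says only that these letters are not there. That stretch ends in ggtcc, the first 5 letters of GGTCCG. The searched window stops at the annotated start, so whether the next base completes GGTCCG is not shown.

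The RNA libraries held 27674987 to 30270598 reads on genes. Rcor2 itself stood at 7901 and 7257 normalized counts in control libraries 1 and 2 and at 6363 and 6840 in cKO libraries 1 and 2, the order kept below. That is a log2 change of -0.20 ± 0.06 (SE), which did not pass the test (limma adjusted p = 0.0541), although the groups did not overlap; the deposited values are per gene and do not show which exons the reads cover. Neuron markers were lower in the cKO, with 6 of 7 falling and a summed level of 157195 and 158739 against 111801 and 121744. Radial glia markers rose in 4 of 8 cases, from sums of 93439 and 91666 to 101706 and 100344. Beside these counts, 6.16% of all tested genes rose and 8.29% fell at a limma adjusted p under 0.05. The 4 meningeal markers stood at sums of 968 and 816 in the controls, 5349 in cKO 1 and 1413 in cKO 2, so cKO 1 stands apart for Col1a1 and its kin. Endothelial and microglial markers did not pass the limma test in either direction: 0 of 8 fell at an adjusted p under 0.05, 2 endothelial genes did at an unadjusted p under 0.05, and edgeR and DESeq2 also called 0.

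Histone mRNA was more abundant in the cKO midline. Members took 0.705% and 0.717% of control reads and 0.824% and 0.844% of cKO reads. Their normalized counts summed to 208143 and 214590 in the controls (mean 211367 ± 4559, SD, n = 2) and to 239746 and 246128 in the cKO (242937 ± 4513, SD, n = 2). The groups did not overlap, and the summed level was 14.9% higher. In bulk tissue, a larger share of cells that make histone mRNA and more of it per cell cannot be told apart.

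Gene by gene, 26 of 59 members (44.1%) rose at a limma adjusted p under 0.05, where 6.16% of all 14324 tested genes rose and 8.29% fell. No member fell by limma, edgeR or DESeq2, and 0 did at an unadjusted p under 0.05. The other 33 members did not pass. In 45 members (76.3%) both cKO libraries lay above both controls, as in 27.7% of tested genes, 2 members lay wholly below, and 12 overlapped. The median log2 change, on the log2(normalized count + 1) scale used for every change below, was 0.23 for the members and -0.01 for all tested genes. Taken library by library against the control mean, the member median was 0.21 in cKO 1 and 0.25 in cKO 2. The 26 called genes rose by 0.20 to 0.35, a narrow band. The number of calls rests on having both controls: 0 members passed without control 1 and 5 without control 2, when 63 and 58 of all tested genes rose. Of those 5, 2 (Hist1h2ak and Hist1h4a) were among the 26, and the other 3 (Hist1h2ba, Hist1h2bp and Hist1h4i) differed widely between the controls. The member median then stood at 0.21 and 0.25. Without cKO 1, the library with high meningeal markers, 29 members rose and the median was 0.25. The authors' deposited table gave an adjusted p for 58 members, with 25 up under 0.05, 0 down and 23 shared with the limma calls, beside 5.93% of all its tested genes up.

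**Figure D1:**
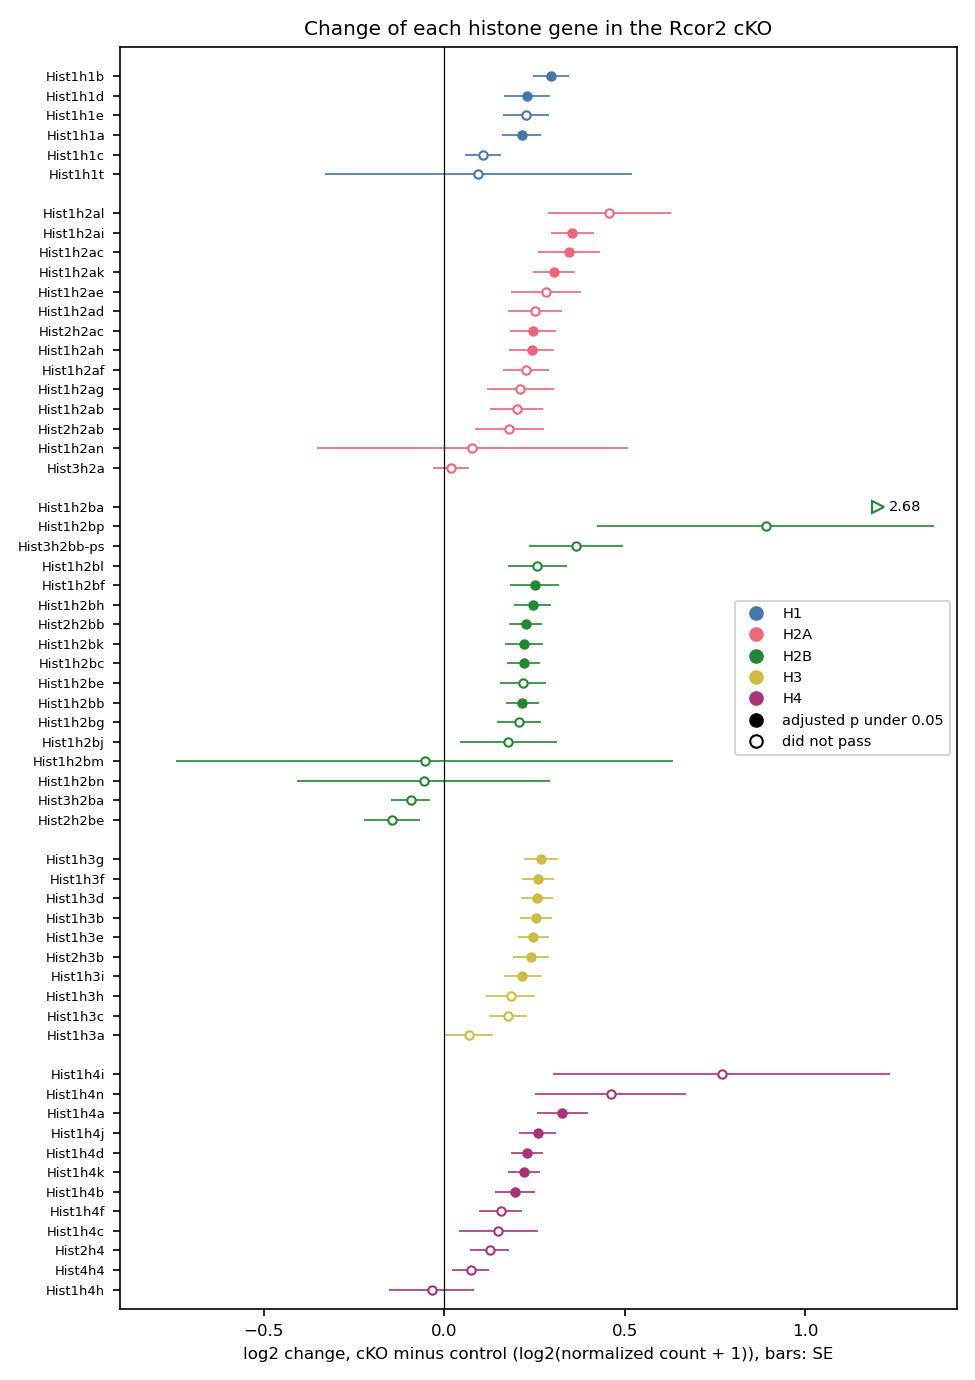
Log2 change (cKO minus control, 2 libraries each) of each of the 59 members, grouped by class and sorted, with SE bars. Filled points passed a limma adjusted p of 0.05; most points lie above 0, the filled ones between 0.20 and 0.35, and Hist1h2ba (2.68) is drawn at the edge without its SE.

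All 5 classes were higher in sum, with no overlap between genotypes in any. H3 rose by 17.6%, H1 by 16.2%, H2A by 16.0%, H2B by 13.9% and H4 by 11.9%. The median log2 change was 0.22 for H1, 0.24 for H2A, 0.22 for H2B, 0.24 for H3 and 0.21 for H4. The differences between classes were not tested. The classes differ far more in level than in change: per kilobase of RefSeq gene span, for the 54 members with a span of at most 1000 bp, the median level was 18270 normalized counts for H1, 7970 for H4, 5446 for H3, 4621 for H2B and 1997 for H2A. The highest single levels per kilobase were 29590 for Hist2h2bb and 28540 for Hist1h4d. How reads shared between copies were counted is not known, so these levels may not compare across classes.

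**Figure D2:**
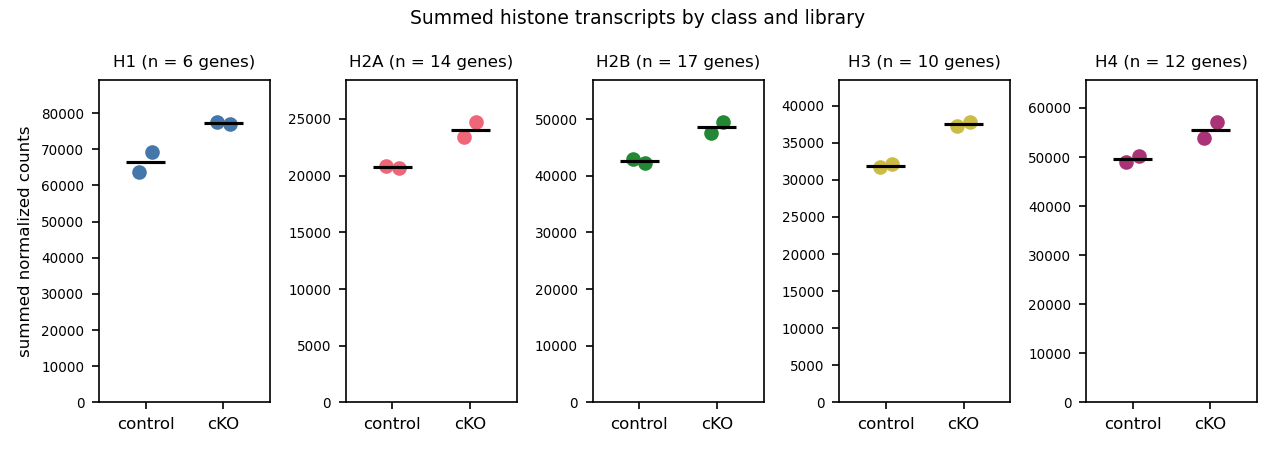
Summed normalized counts of each class in the 2 control and 2 cKO libraries, with axes from 0; points are libraries and lines are group means. In every class both cKO points lie above both control points, with rises of 11.9% (H4) to 17.6% (H3).

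The H1 genes encode the linker histones that bind DNA where it enters and leaves the nucleosome. Hist1h1b (H1.5) had 11270 and 12037 normalized counts in the controls against 14603 and 13987. Both cKO libraries were higher, by a log2 of 0.30 ± 0.05 (SE, limma adjusted p = 0.00956). Hist1h1a (H1.1) went from 13304 and 14584 to 16117 and 16196 (0.21 ± 0.05, limma adjusted p = 0.0329). Hist1h1d (H1.3) went from 13530 and 15502 to 16885 and 17073 (0.23 ± 0.06, limma adjusted p = 0.0491). Neither gene's groups overlapped, though the controls of Hist1h1d were farther apart. Hist1h1e (H1.4), the most abundant H1 gene, had 14774 and 16680 against 18931 and 17820 and narrowly missed the threshold (0.23 ± 0.06, limma adjusted p = 0.0508). Hist1h1c (H1.2), one of the copies known to make polyadenylated mRNA in differentiated cells, stood at 10749 and 10506 against 11003 and 11903 (0.11 ± 0.05, limma adjusted p = 0.197). Hist1h1t, the testis H1, was near the minimum at 12.7 and 11.9 against 9.26 and 18.6. So 3 of 6 H1 genes rose under limma, beside 6.16% of all tested genes. For this class edgeR called 1, and DESeq2 and the authors' deposited test called 4 each.

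H2A and H2B form the dimers that flank the central H3-H4 tetramer. Among H2A genes 5 of 14 rose under limma (edgeR called 3 and DESeq2 4), beside 6.16% of all tested genes. In 12 both cKO libraries lay above both controls, as in 27.7% of all tested genes. Hist1h2ai rose most firmly, from 1727 and 1738 to 2318 and 2118, a log2 of 0.35 ± 0.06 (SE, limma adjusted p = 0.00895). Hist1h2ak, the most abundant H2A copy by mean count, went from 4144 and 4641 to 5412 and 5406 (0.30 ± 0.06, limma adjusted p = 0.0141). Both genes had cKO values clear of the controls. Hist1h2ac, a copy known for polyadenylated mRNA, went from 1534 and 1297 to 1705 and 1882 (0.34 ± 0.09, limma adjusted p = 0.0339). Hist2h2ac went from 1871 and 2099 to 2357 and 2341 (0.24 ± 0.06, limma adjusted p = 0.0371). Hist3h2a, the other abundant copy, did not follow them: it had 4541 and 4624 against 4496 and 4790, and the groups overlapped (0.02 ± 0.05, limma adjusted p = 0.838). Hist1h2al, which RefSeq calls a transcribed pseudogene, had the highest estimate at 97.5 and 78.9 against 119 and 122 (0.46 ± 0.17, limma adjusted p = 0.112).

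Among H2B genes 6 of 17 rose, beside 6.16% of all tested genes. In 10 both cKO libraries lay above both controls, in 2 (Hist2h2be and Hist3h2ba) both lay below, and 5 overlapped. Of all tested genes 27.7% lay wholly above and 33.3% wholly below. Hist2h2bb, the most abundant, went from 13090 and 13817 to 15840 and 15598 (0.23 ± 0.05, SE, limma adjusted p = 0.0175). Hist1h2bb went from 6231 and 6080 to 7003 and 7297 (0.22 ± 0.04, limma adjusted p = 0.0181). In both, the distance between genotypes exceeded that within them. Hist1h2bc, known for polyadenylated mRNA, went from 2972 and 3038 to 3444 and 3555 (0.22 ± 0.05, limma adjusted p = 0.0192). Hist1h2bh went from 2152 and 2293 to 2608 and 2655 (0.24 ± 0.05, limma adjusted p = 0.0198). Hist2h2be, known as a polyadenylated copy of differentiated cells, pointed the other way at 884 and 876 against 748 and 845, with no overlap, but did not pass (-0.15 ± 0.08, limma adjusted p = 0.248). Of the 4 copies listed for polyadenylated mRNA, 2 rose under limma and 1 under edgeR, with a median of 0.16.

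H3 and H4 make up the tetramer at the core of the nucleosome. Among H3 genes 7 of 10 rose and 9 had no overlap, all of them higher in the cKO. Of all tested genes 6.16% rose and 27.7% lay wholly above the controls. Without either control 0 H3 genes passed. Hist1h3f, the most abundant H3 copy, went from 6377 and 6562 to 7655 and 7828 (0.26 ± 0.04, SE, limma adjusted p = 0.00917). Hist1h3b went from 4937 and 5002 to 6004 and 5844 (0.25 ± 0.04, limma adjusted p = 0.00963). Replicates of both genes were close and the genotypes well apart. Hist1h3d went from 3076 and 3059 to 3658 and 3676 (0.26 ± 0.04, limma adjusted p = 0.00981). Hist1h3e went from 5722 and 5781 to 6715 and 6928 (0.25 ± 0.04, limma adjusted p = 0.0105). Hist1h3g had the highest estimate of the class, at 2261 and 2307 against 2783 and 2718 (0.27 ± 0.05, limma adjusted p = 0.0109). Hist1h3a was the lowest, at 2089 and 2093 against 2057 and 2338, and was the one H3 gene whose groups overlapped (0.07 ± 0.07, limma adjusted p = 0.532).

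Among H4 genes 5 of 12 rose, and in 9 both cKO libraries lay above both controls. The shares of all tested genes were 6.16% and 27.7%. Hist1h4d, the most abundant, went from 10730 and 10405 to 12590 and 12167 (0.23 ± 0.04, SE, limma adjusted p = 0.0146). Hist1h4j went from 2833 and 3036 to 3484 and 3531 (0.26 ± 0.05, limma adjusted p = 0.0153). Its near neighbour Hist1h4k went from 4289 and 4352 to 5102 and 4967 (0.22 ± 0.04, limma adjusted p = 0.0155). All 3 genes had both cKO values above both controls. Hist1h4a went from 2002 and 2311 to 2743 and 2654 (0.33 ± 0.07, limma adjusted p = 0.0202), and Hist1h4b from 2881 and 2698 to 3101 and 3287 (0.20 ± 0.05, limma adjusted p = 0.0491). Hist1h4h differed between the cKO libraries: it had 9844 and 10188 in the controls, 8376 in cKO 1 and 11402 in cKO 2 (-0.04 ± 0.12, limma adjusted p = 0.874). Its estimate was -0.26 without cKO 2 (limma adjusted p = 0.00427) and 0.19 without cKO 1 (limma adjusted p = 0.0446).

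By cluster, the calls were found in the Hist1 genes of chromosome 13 and the Hist2 genes of chromosome 3. In Hist1, 23 of 49 genes rose, with a median log2 change of 0.23 and a summed level of 175059 and 180152 against 202609 and 208527. In Hist2, 3 of 6 rose, with a median of 0.20. Beside these counts, 6.16% of all tested genes rose. Both cluster sums were higher in each cKO library than in each control. The 3 Hist3 genes of chromosome 11 summed to 7722 and 7748 against 7538 and 8034, which overlap, and had a median of 0.02. None of them rose or fell by limma, edgeR or DESeq2; at an unadjusted p under 0.05, 1 was higher (the pseudogene Hist3h2bb-ps) and 0 were lower. Hist4h4 of chromosome 6, the one Hist4 member, had 3227 and 3304 against 3314 and 3560, with both cKO libraries higher, and did not pass (0.07 ± 0.05, SE, limma adjusted p = 0.387). The difference between clusters was not tested. Within the Hist1 cluster the 13 members between Hist1h2bl and Hist1h4n (GRCm38.p6, chr13:21715711-21832197) had 6 genes up and a median of 0.26. The 29 members between Hist1h4h and Hist1h1a (chr13:23531044-23764412) had 15 up and a median of 0.23.

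A small group of members differed strongly between libraries of one genotype. Between the 2 controls, 6 of 57 members averaging at least 100 normalized counts (10.5%) differed by over 1.5-fold, against 0.533% of all such genes. Between the 2 cKO libraries 5 (8.77%) did, against 1.02%. With the low-count Hist1h1t this made 7 members, all on chromosome 13, and 5 of them passed 1.5-fold in both genotypes. Those outside the naming rule were named after their values had been seen. Hist1h2bm had 2761 in control 1 and 579 in control 2, then 691 in cKO 1 and 2146 in cKO 2. Hist1h2an had 952 and 359, then 437 and 870, and Hist1h2bn had 405 and 200, then 199 and 375. These 3 were thus high in control 1 and cKO 2. Hist1h1t differed in the cKO alone, at 9.26 and 18.6, with 12.7 and 11.9 in the controls. The testis H2B gene Hist1h2ba had 5.85 and 478, then 531 and 253. Hist1h4i had 565 and 1964, then 2175 and 1482, and Hist1h2bp had 98.5 and 320, then 427 and 255. These last 3 were low in control 1 and, by less, in cKO 2. None of the 7 passed the limma test, and the other 52 members held all 26 calls with a median of 0.23. The estimates of Hist1h2ba (2.68 ± 1.54, SE) and Hist1h4i (0.77 ± 0.47) rest on control 1. Without control 1 they were -0.38 and -0.13, and without control 2, when both passed the test, they were 5.75 and 1.67.

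**Figure D3:**
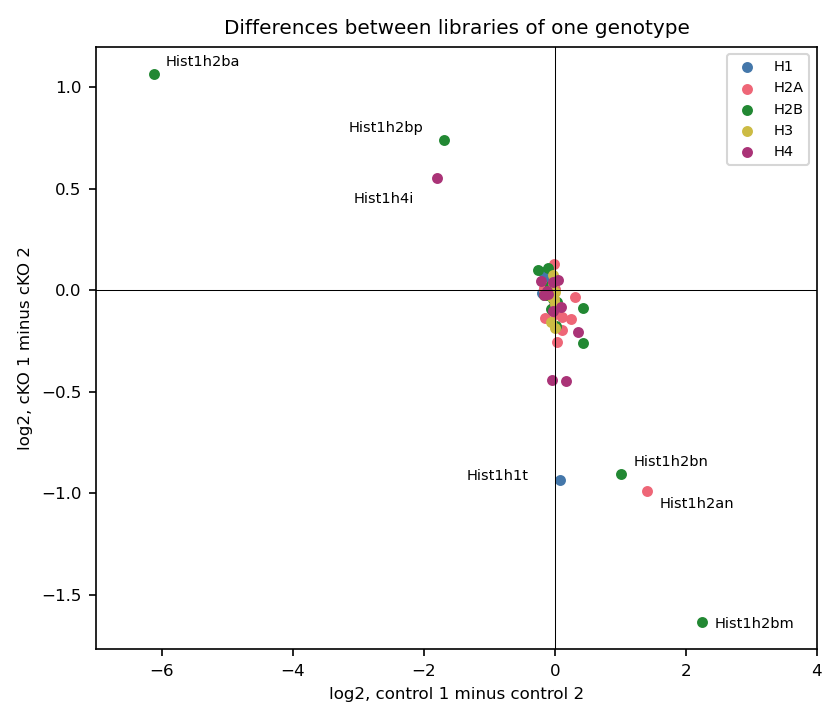
Log2 difference between the 2 control libraries (x axis) and between the 2 cKO libraries (y axis) for each of the 59 members, coloured by class. Most members sit near the origin; 3 labelled genes lie to the lower right (high in control 1 and cKO 2), Hist1h1t lies below, and 3 lie to the upper left.

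The genes of S phase, during which histone mRNA is made, moved in the same direction. Of 25 listed S phase genes 20 rose under limma, and in 25 both cKO libraries exceeded both controls, with a median log2 change of 0.28. Among all tested genes, 6.16% rose and 27.7% had both cKO libraries above both controls. Mcm6, part of the helicase that opens DNA at the fork, went from 6013 and 6074 to 7956 and 7677 (0.37 ± 0.04, SE, limma adjusted p = 0.00429). Uhrf1, which guides maintenance methylation at the fork, went from 4039 and 4158 to 5635 and 5188 (0.40 ± 0.05, limma adjusted p = 0.00568). Mcm3 rose by 0.34 ± 0.05 (limma adjusted p = 0.0069) and Rrm2, a ribonucleotide reductase subunit, by 0.41 ± 0.06 (limma adjusted p = 0.00729). The S phase list summed to 73553 and 73895 against 92545 and 87605, 22.2% higher. Divided by that sum, the histone sum was 2.83 and 2.90 against 2.59 and 2.81, so both cKO ratios were below both control ratios. The margin was narrow: control 1 (2.83) and cKO 2 (2.81) were closer than the 2 libraries of either genotype. The difference in this ratio was not tested. Without control 1 or without control 2, 1 S phase gene passed. The part that radial glia, S phase or neuron content has in the histone values was not tested.

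The genes that handle histones were taken as further lists; their difference from the histone genes was not tested. Of 24 histone chaperones 6 rose, 14 had both cKO libraries above both controls, and 0 fell (0 at an unadjusted p under 0.05 and 0 by edgeR or DESeq2), with a median of 0.05. Hjurp, the chaperone of the centromeric H3 variant, went from 676 and 686 to 899 and 931 (0.42 ± 0.07, SE, limma adjusted p = 0.00791). The CAF-1 subunits, which deposit H3-H4 behind the fork, rose as well, Chaf1a from 1654 and 1542 to 2134 and 1945 (0.35 ± 0.06, limma adjusted p = 0.0122) and Chaf1b by 0.23 ± 0.06 (limma adjusted p = 0.0307). Nasp, which keeps a store of soluble H3-H4, rose by 0.19 ± 0.04 (limma adjusted p = 0.0219). In these 4 genes the genotypes did not overlap. Of 11 listed histone variants 2 rose, Cenpa (0.26 ± 0.06, limma adjusted p = 0.0263) and H2afx (0.21 ± 0.05, limma adjusted p = 0.0302). In this list 8 genes lay wholly above the controls, and the median was 0.08. The shares of all tested genes that rose and that lay wholly above were 6.16% and 27.7%. No chaperone or variant rose without control 1 or without control 2.

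The processing and transcription list of 17 genes held 1 call, and it was downward, where 8.29% of all tested genes fell. Lsm11, a U7 snRNP protein needed to cut histone pre-mRNA, had 1609 in both controls against 1211 and 1196, a log2 change of -0.42 ± 0.05 (SE, limma adjusted p = 0.0056) that did not pass without control 1 or without control 2. No gene of the list rose by limma, edgeR or DESeq2, while 4 did at an unadjusted p under 0.05 and 3 passed limma without cKO 2. Slbp, the stem-loop binding protein, had 1492 and 1654 against 1860 and 1730 (0.19 ± 0.07, limma adjusted p = 0.0978). Npat had 2305 and 2544 against 2447 and 2462, with overlap. The list median was 0.02, near that of all genes. In 8 of the 17 genes both cKO libraries lay above both controls, and in 3 both lay below. Of all tested genes 27.7% lay wholly above and 33.3% wholly below. Slbp and Npat were chosen for mention by their role.

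**Figure D4:**
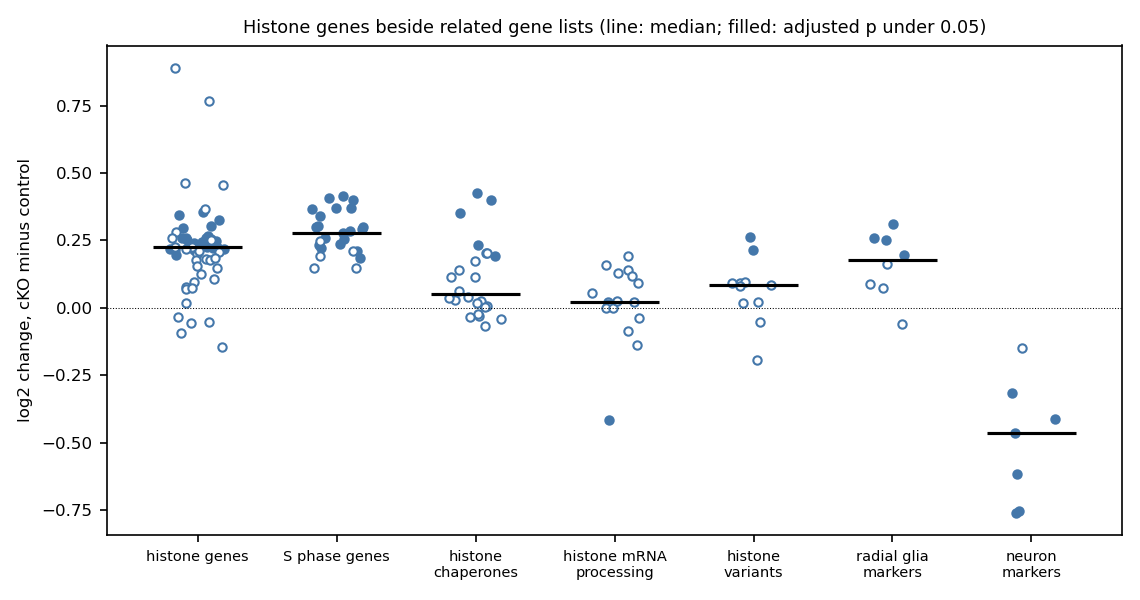
Log2 change (cKO minus control) of each gene in 7 gene lists; lines are medians and filled points passed a limma adjusted p of 0.05. Histone genes (median 0.23), S phase genes (0.28) and radial glia markers (0.18) sit above 0. Chaperones, processing genes and variants sit near 0, and neuron markers below 0 (median -0.47). Hist1h2ba (2.68) is beyond the axis and counted in the median.

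In the Rcor2 ChIP-seq, 22 of 6995 deposited peaks named a histone symbol in the gene column, 11 classed promoter and 11 distal by the authors. They named 17 members (28.8%), 14 of them by a promoter peak (23.7%). Of all tested genes, 20.9% were named by a peak and 10.5% by a promoter peak. The members named were mostly H4: 10 of 12 H4 genes against 1 of 6 H1, 2 of 14 H2A, 2 of 17 H2B and 2 of 10 H3 genes. Among the 51 members with a RefSeq promoter, a peak summit lay within 1 kb of the start of 9, 8 of them H4. The other members could not be scored. Hist1h3a and Hist1h3f, each named by a promoter peak, were among those not scored. The peak named for Hist1h1b had its summit 1470 bp past the start, beyond a gene of 794 bp.

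The promoter peaks were above IgG but mostly not above input. Peaks had been called against IgG, so that first comparison was fixed by the calling. The heights below are as deposited and were taken as coverage unscaled for depth. Ratios between antibodies and input therefore hold only beside those at other peaks. At the Hist1h4d peak (chr13:23581622-23581782) the Rcor2 heights were 15 and 16, IgG 2 and 6, and input 29 and 19. At Hist1h4f (chr13:23551476-23551696) Rcor2 was 14 and 14, IgG 2 and 5, and input 25 and 25. Both Rcor2 libraries were below both inputs at these 2 peaks and above both IgG libraries. At Hist1h4j (chr13:21734825-21735254), whose printed promoter the peak covers, Rcor2 was 20 and 18, IgG 5 and 8, and input 32 and 18. At Hist1h4k (chr13:21750556-21750880) Rcor2 was 12 and 24 against input of 21 and 20. There the Rcor2 and input libraries overlapped.

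The peak naming Hist1h4n also named 5 symbols outside the members and lay 20274 bp from the start of that gene. Over the 9 promoter peaks naming an H4 member, both Rcor2 libraries were below both inputs at 6 (66.7%) and above both at 0. Of all 1619 promoter peaks, 15.3% lay below both inputs and 30.4% above. The median log2 ratio of Rcor2 to input height, with 0.5 added to each, was -0.55 for the H4 peaks and 0.21 for all promoter peaks. With replicate 1 alone these were -0.89 and -0.20, and with replicate 2 alone -0.16 and 0.53. The median mean input height was 24.0 for the H4 peaks and 15.0 for all promoter peaks. The Rcor2 medians were 16.5 and 16.0, so these H4 promoter peaks stood apart more in input height than in Rcor2 height. The median IgG heights were 5.5 and 4.0. One histone promoter peak of 11 was above both inputs, that between Hist1h2bh and Hist1h3f (chr13:23543726-23544017), with Rcor2 at 16 and 18 and input at 5 and 11.

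Distal peaks gave another picture, with both Rcor2 libraries above both inputs at 7 of 11, against 41.8% of all distal peaks, and a median log2 ratio of 0.71 against 0.44. With replicate 1 alone the medians were 0.43 and 0.10, and with replicate 2 alone 1.04 and 0.74. Of the 11, 5 named Hist1h4h and had summits at -13580 to -4657 bp from its start, and 4 of them were above both inputs. At the one farthest out (chr13:23516996-23518370) Rcor2 was 23 and 33, IgG 7 and 6, and input 12 and 10. The distal peak named Hist1h2ai (chr13:21710424-21711288) had the highest fold enrichment of the histone peaks, 7.33 in the authors' table, with Rcor2 at 22 and 32 and input at 13 and 9. The gene column does not say how a distal peak was tied to its gene.

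**Figure D5:**
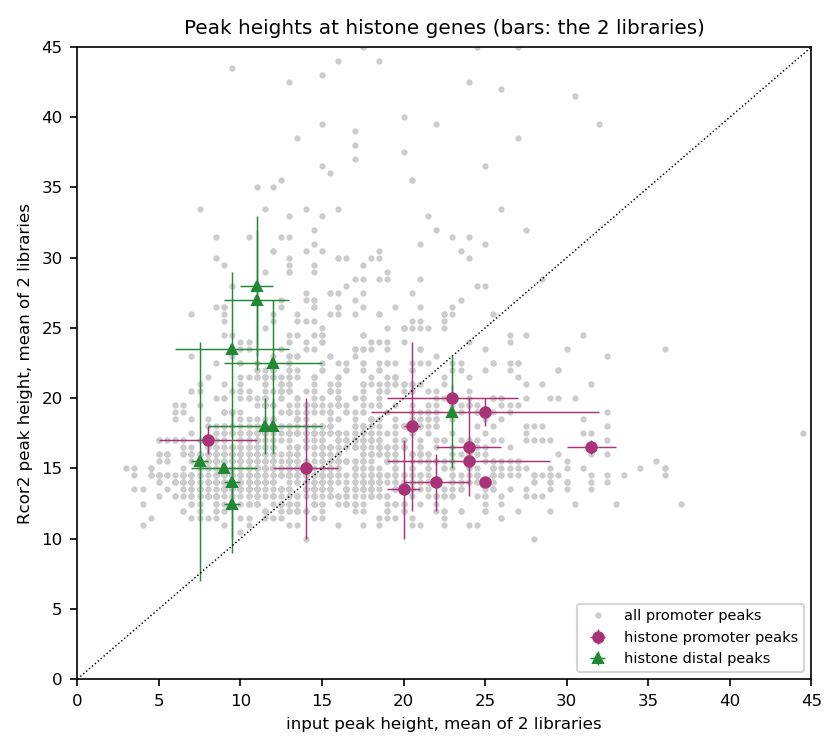
Mean Rcor2 height against mean input height (2 libraries each, coverage) at histone promoter peaks, histone distal peaks and all 1619 promoter peaks, with bars spanning the 2 libraries and a dotted line of equality; 10 promoter peaks lie beyond the limit of 45. Most histone promoter peaks lie right of the line and most distal ones above it.

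Changes were set beside the peaks: the 17 named by a peak had 10 up and a median log2 change of 0.23, and the 42 named by none had 16 up and a median of 0.22. The difference was not tested. Of all tested genes, with or without a peak, 6.16% rose. Of the 14 named by a promoter peak, 8 rose, Hist1h4d, Hist1h4j and Hist1h4k among them, and 6 did not pass (Hist1h2ag, Hist1h3a, Hist1h4c, Hist1h4f, Hist1h4i and Hist1h4n).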

How the data were processed

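RNA-seq and ChIP-seq of midline cortex were grouped by sample titles, 2 libraries per group. The sample protocols and the design text describe the TruSeq kit differently (RNA or total RNA). RNA selection, which bears on histone mRNAs without poly(A) tails, is therefore unclear. Trim Galore, HISAT2 2.1.0 and mm10 appear in the submitters' processing notes. No source used here gives the gene counter, strand use or peak settings.

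The authors deposited, per the file headers, normalized counts (a signal per gene), log2 fold changes, a test score and p-values. All values (100%) were whole reads divided by 1 factor per library (tolerance 0.02). Per the file headers, the authors also deposited peaks with a fold enrichment ratio over IgG, −log10 p and q, pileup and unscaled coverage heights.

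limma 3.58.1 (R 4.3.3) with a mean-variance trend was fitted to log2(normalized count + 1) for 14324 genes with a mean of at least 10, two-sided, Benjamini-Hochberg over those genes, called under 0.05. Residual degrees of freedom were 2, prior 6.21; an exact permutation of 2 against 2 cannot go below 0.333. The fit was tested on simulated data in which every gene had the same variability. That leaves untested the genes that differ strongly between libraries of one genotype. edgeR 4.0.16 and DESeq2 1.42.0 on recovered reads, other pseudocounts, filters and scalings, a replicate block and leaving out each library were alternatives.

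Members and lists were chosen with earlier results of these data known. Named were, per class, up to 4 called genes by adjusted p, the 2 most abundant and the extremes, genes with a peak, polyadenylated copies, up to 4 called genes per list (or its 2 most abundant), and Rcor2; exceptions are marked. Of marker lists not described above, intermediate progenitors had 2 of 3 up, interneurons 3 of 6 down, choroid plexus 1 of 3 up and blood 1 of 1 measured down. The shares of all tested genes were 6.16% up and 8.29% down.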

Additional observations from a re-analysis of the deposited data

How the results depend on the processing

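Calls were limited by 2 libraries per group. The median over members was 0.21 to 0.25 under every alternative, and the member count up was 21 (edgeR) to 32 (TMM scaling) with all libraries. Leaving out 1 library gave 0 to 29 members up and 0 to 1 down (Hist1h4h, without cKO 2). By class the leave-one-out counts up were 0 to 4 for H1, 0 to 7 for H2A, 0 to 8 for H2B, 0 to 9 for H3 and 0 to 6 for H4. For the lists they were 0 to 8 for chaperones, 0 to 2 for variants (0 to 1 down), 1 to 21 for S phase, 0 to 3 for processing (0 to 1 down) and 0 to 2 for the polyadenylated copies. Under edgeR 1 H1 gene, 3 H2A genes and 1 polyadenylated copy were called, and under DESeq2 4, 4 and 2. Among 33 named genes called with all libraries, 32 lost the call without control 1, 30 without control 2, 4 without cKO 1 and 2 without cKO 2. Leaving out 1 library reversed 7 named genes, with ranges of -0.38 to 5.75 for Hist1h2ba and -0.13 to 1.67 for Hist1h4i (lowest without control 1), -0.029 to 0.33 for Hist1h4c (lowest without control 2), and, lowest without cKO 2 and highest without cKO 1, -0.26 to 0.19 for Hist1h4h, -0.37 to 0.56 for Hist1h1t, -0.027 to 0.064 for Hist3h2a and -0.024 to 0.16 for Hist1h3a. None of these 7 had passed with all libraries, and beyond the fewer libraries the cause was not tested.

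With the replicate number as a block, 25 members rose and Hist1h4b no longer passed. The deviations of same-numbered libraries correlated at 0.242 over genes, and the labels tie no pair to a litter, so the numbers were not treated as pairs. A fold enrichment of at least 4 left 6 members named by a peak. A summit within 1 kb of a start, scored for the 51 members with a RefSeq promoter, left 9. The median log2 ratio of Rcor2 to IgG at histone promoter peaks was 1.55, below the 2.03 of all promoter peaks. It was 1.08 with 5 added to heights, and 1.47 to 1.53 with 1 library of each kind. That to input was -0.53, and -0.81 to -0.13 with 1 library of each kind (H4 peaks -0.89 to -0.16, distal peaks 0.43 to 1.04).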
